A study of Panicum sumatrense with 28 samples.

Results

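Young root (13 days after sowing) was compared with crown meristem (26 days) in the cereal Panicum sumatrense (little millet), genotype JK-8. The comparison used 2 young root and 3 crown meristem libraries, chosen by their tissue labels, out of 28 libraries from 10 tissues. All plants were kept in a growth chamber, and no treatment is labelled. The tissues differ in age as well as in kind, so age and tissue cannot be told apart. Values are TPM (reads per transcript length as a share of the library), scaled by 1 factor per library (TMM, the trimmed mean of M-values), given by the authors for transcripts of a de novo assembly. They keep no read totals, so depth is unknown.

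The root takes up water and minerals from the soil, through root hairs and membrane transporters, and passes them to the xylem. The crown is the compact base of a grass shoot, where the shoot apex, the tiller buds and the nodal roots arise, and it joins the root system to the shoot. The series title names mineral uptake as the purpose of the atlas. The table pairs no assembly identifier with a gene name, so the labels of the tissues were not set against marker genes and no function is given for any transcript.

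Young root expression was dominated by a few transcripts, whereas crown meristem expression was not. The most abundant transcript of each library took 32.8% and 42.7% of the young root totals, and 0.521%, 0.896% and 0.721% of the totals of crown meristem libraries 1, 2 and 3. The 3 crown libraries were alike, with a Spearman's rho of 0.859 to 0.860 over the transcripts tested. The 2 young root libraries were less alike, at 0.697, and correlated with the crown libraries at 0.561 to 0.626. Young root library 1 carries a library identifier of the same series as the crown libraries and young root library 2 one of another series.

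Of 77548 transcripts with a value of 1 or more in at least 2 of the 28 libraries, 6913 (8.91%) were higher in young root and 14226 (18.3%) were lower. These calls need a limma Benjamini-Hochberg adjusted p below 0.05 and a difference of at least 1 on the log2(value + 1) scale. In bulk tissue, fewer cells of a type and less RNA per cell cannot be told apart. The median log2 difference was 2.27 among the higher and -1.88 among the lower transcripts. Calls with a difference of at least 16-fold on this scale numbered 1058 higher and 676 lower in young root. This count was recomputed across settings after seeing the data, and its balance turned to 352 and 2145 with libraries rescaled to a common sum and to 2464 and 6283 with a pseudocount of 0.1. With a pseudocount of 5 they numbered 348 and 89, with median centring 1400 and 431, and without young root library 2 they numbered 1943 and 930. The libraries of the tissues did not overlap for 5830 of the higher and 13672 of the lower calls, against 38.0% of all transcripts tested. Of the 1083 higher calls that did overlap, 1050 had a 0 in 1 young root library.

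The share of calls that were lower in young root, 67.3%, depended on the scaling. It was 90.4% when libraries were rescaled to a common sum and 48.0% when they were centred on their median, which acts on this balance by construction. The median log2 difference over all transcripts was -0.02 as deposited, -0.53 with the common sum and 0.40 with median centring. With young root library 1 as the only root library, the libraries compared belonged to 1 identifier series. The median log2 difference over all transcripts was then -0.07. In that fit the spread of the lone library was taken from the other tissues, whose libraries belong to both series.

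**Figure D1:**
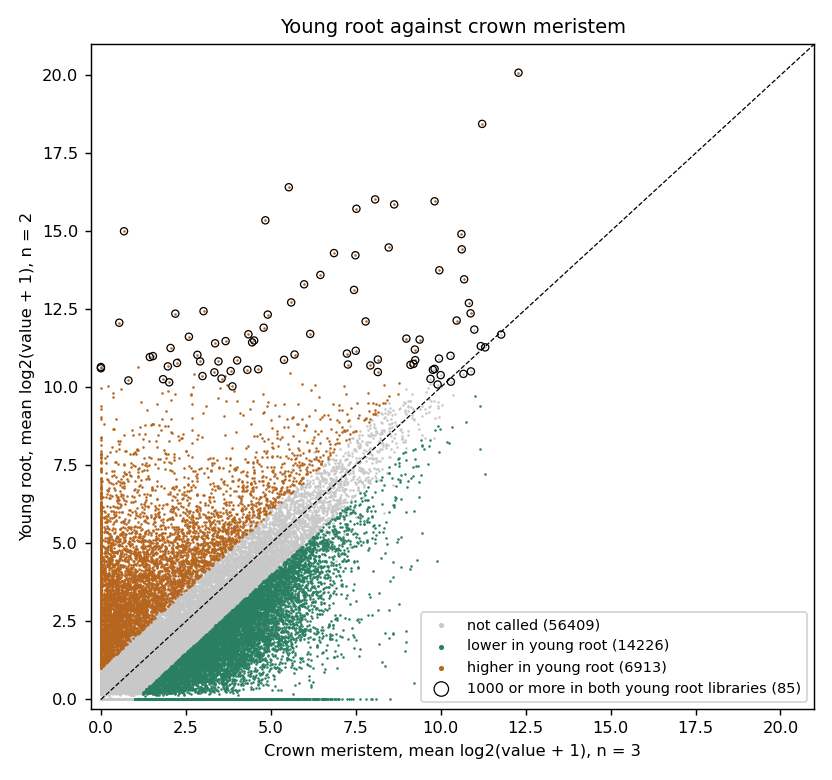
Each point is 1 of 77548 transcripts, with the mean log2(value + 1) of the 3 crown meristem libraries on the x axis and of the 2 young root libraries on the y axis. Brown points are the 6913 calls higher in young root, green points the 14226 lower calls, and circles the 85 transcripts at 1000 or more in both young root libraries, which reach from the y axis to the dashed line of equality.

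The transcripts that fill the young root libraries were examined first. TRINITY_DN7657_c1_g1_i63 had values of 902966 and 1368107 in young root libraries 1 and 2, and of 3799, 6376 and 5198 in crown meristem libraries 1, 2 and 3. It was the most abundant transcript of both tissues by mean value, although the crown mean was 0.451% of the root mean. Deposited values summed to 2753439 and 3202138 in young root libraries 1 and 2, and to 736450, 711327 and 720798 in the crown libraries. Crown percentages of root means and log2 differences, here and below, therefore depend on the scaling. As a share of the library total, this transcript took 32.8% and 42.7% in young root and 0.896% and 0.721% in crown libraries 2 and 3. Its log2 difference was 7.79 (SE 0.61, limma adjusted p = 1.7e-09).

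TRINITY_DN22072_c0_g2_i1 stood second in young root with 327855 and 384212, and had 1675, 2936 and 2765 in the crown libraries. The groups lay far apart (log2 difference 7.22, SE 0.57, limma adjusted p = 1.7e-09), and the crown mean was 0.691% of the root mean. These 2 transcripts were the overlap between the 10 most abundant of young root and the 10 most abundant of crown meristem.

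The other 8 of the young root top 10 were all higher in young root, but the part that was seen in the crown varied widely. TRINITY_DN44605_c0_g1_i4 kept the most, with 35020 and 26992 in young root and 1212, 1995 and 1581 in the crown. Its crown mean was 5.15% of its root mean, the highest of the 10. TRINITY_DN25907_c0_g1_i1 had 56845 and 71210 in young root against 620, 1264 and 948 in the crown, or 1.47%. The crown levels of these abundant transcripts therefore did not follow the order of their root levels. TRINITY_DN85104_c0_g1_i1, TRINITY_DN23595_c1_g1_i2 and TRINITY_DN4077_c2_g1_i1 had crown means of 0.713%, 0.428% and 0.311% of their root means. TRINITY_DN4077_c2_g1_i1 also differed most between the root libraries, with 32248 and 90375.

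The remaining members of the top 10 were far scarcer in the crown. TRINITY_DN13091_c0_g1_i1 had 101458 and 75108 in young root and 51.9, 44.3 and 39.9 in the crown (log2 difference 10.89, SE 0.68, limma adjusted p = 5.8e-11). TRINITY_DN2265_c0_g1_i15 had 44059 and 39368 against 35.1, 21.2 and 28.2 (log2 difference 10.51, SE 0.54, adjusted p = 2.0e-12). Crown levels of both were near those of plumule, 34.3 and 29.2, and of young leaf, 77.4 and 34.1. TRINITY_DN4135_c0_g2_i1 had 27980 and 38403 in young root, was listed at 0 in crown libraries 1 and 2 and had 3.15 in library 3. Its log2 difference of 14.32 (SE 1.0, adjusted p = 3.2e-10) was the highest of all calls whose libraries did not overlap.

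Calls for most of the top 10 were lost when limma was fitted to the 5 libraries alone, although root and crown values did not overlap for any of them. That fit also moderated the variance along an intensity trend, and the part of this trend in the lost calls was not tested. With the 5 libraries alone, which leave 3 residual degrees of freedom, 7 of the top 10 did not pass (limma adjusted p from 0.11 for TRINITY_DN4077_c2_g1_i1 to 1.0), while TRINITY_DN13091_c0_g1_i1, TRINITY_DN2265_c0_g1_i15 and TRINITY_DN4135_c0_g2_i1 did (0.0059, 0.0022 and 0.0033). Quantile normalization, which gives the top ranks of every library the same values, also ended the calls of TRINITY_DN7657_c1_g1_i63 (0.26), TRINITY_DN22072_c0_g2_i1 (1.13) and TRINITY_DN44605_c0_g1_i4 (0.66).

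**Figure D2:**
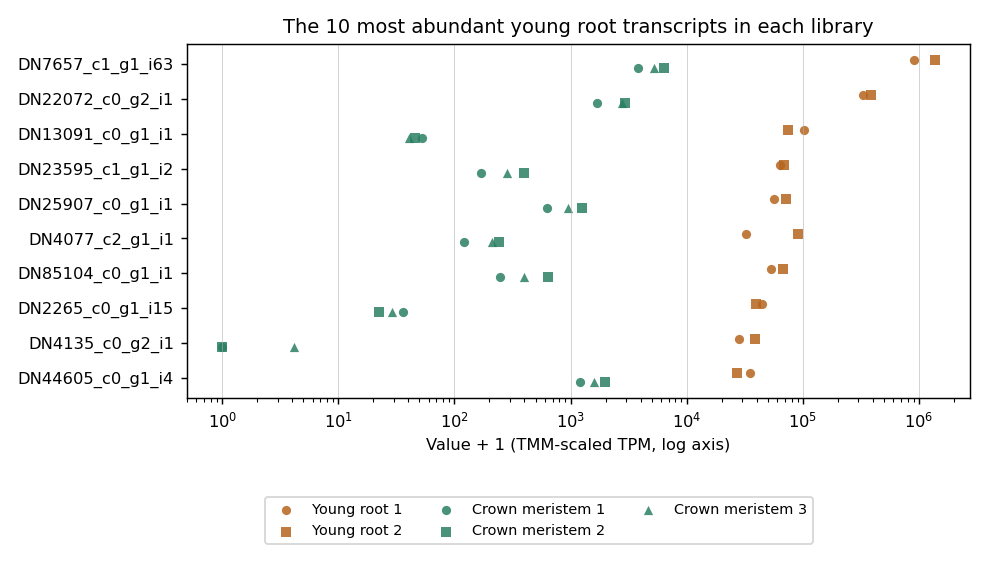
Values + 1 on a log axis for the 10 transcripts with the highest young root mean, 1 symbol per library (brown, young root libraries 1 and 2; green, crown meristem libraries 1, 2 and 3). Root and crown symbols do not overlap for any of the 10; crown values run from 0 for TRINITY_DN4135_c0_g2_i1 to 6376 for TRINITY_DN7657_c1_g1_i63.

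Among the largest rises, several transcripts were close to absent from the crown. TRINITY_DN21321_c0_g2_i1 had 3376 and 5458 in young root and 0, 0.838 and 0.661 in crown libraries 1, 2 and 3 (log2 difference 11.53, SE 1.05, limma adjusted p = 1.6e-08). Listed at 0 in all crown libraries were TRINITY_DN30188_c0_g1_i2, with 2565 and 1012 in young root, TRINITY_DN1345_c0_g3_i4, with 1434 and 1701, and TRINITY_DN3492_c0_g2_i2, with 1363 and 735. The adjusted p-values of these 3 were 3.0e-08, 5.6e-11 and 5.0e-08. All 4 were present in radicle, the embryonic root, at means of 1113, 656, 297 and 417, and at under 3 in plumule, young leaf and vegetative stem.

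Other large rises kept a low crown level in every library. TRINITY_DN19303_c0_g1_i1 had 4437 and 6189 in young root and 3.34, 3.81 and 3.56 in the crown (log2 difference 10.17, SE 0.29, limma adjusted p = 8.5e-17). TRINITY_DN29315_c0_g1_i1 had 4242 and 7304 against 4.46, 9.41 and 8.48 (log2 difference 9.42, SE 0.69, adjusted p = 5.7e-10). In both cases the replicate spread was small beside the difference between the tissues.

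To see which root-abundant transcripts remained detectable in the crown, the 85 transcripts at 1000 or more in both young root libraries were followed, all of which passed the filter on low values. Together they held 71.0% of the total of young root library 1 and 79.6% of that of library 2. In crown meristem, 75 of the 85 were at 1 or more in all 3 libraries, 7 in some of them and 3 in none. Detection at this level was not particular to the crown: 74 of the 85 were at 1 or more in every plumule library, 67 in every vegetative stem library and 63 in every young leaf library. Radicle had 77 and germinating seed 80.

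The crown levels of the 75 were spread over a wide range. On the deposited scale, the crown mean was between 0.0514% and 125.7% of the root mean, with a median of 1.94% and quartiles at 0.614% and 29.0%. In all 3 crown libraries 60 of them were at 10 or more, 43 at 100 or more and 16 at 1000 or more. TRINITY_DN7657_c1_g1_i63, TRINITY_DN31280_c1_g1_i1, TRINITY_DN43988_c0_g1_i1 and TRINITY_DN22072_c0_g2_i1 had the highest crown means of the 85, from 5125 down to 2459. Of the 85, 71 were called higher in young root, 53 of them by at least 16-fold, and none was called lower. Since high young root values chose these transcripts, the counts describe them and are no test.

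As a share of the library total, which does not depend on the scaling factor, the 85 took 6.28%, 7.46% and 6.79% in crown libraries 1, 2 and 3. Radicle libraries gave 32.8% to 47.6%, plumule 4.57% to 5.25%, young leaf 3.79% to 4.01% and vegetative stem 5.48% and 6.19%. Every crown library thus lay above every plumule, young leaf and vegetative stem library. Germinating seed libraries lay above every crown library, at 7.84% to 21.3%, and early panicle reached 6.18%. Without the 2 leading root transcripts the crown shares were 5.58%, 6.23% and 5.75%, and vegetative stem overlapped them with 5.94% and 5.19%. The median of the tissue means over the 85 transcripts was 153 in crown meristem, 70.4 in plumule, 41.1 in vegetative stem and 31.0 in young leaf. It was 474 in germinating seed and 88.8 in early panicle.

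**Figure D3:**
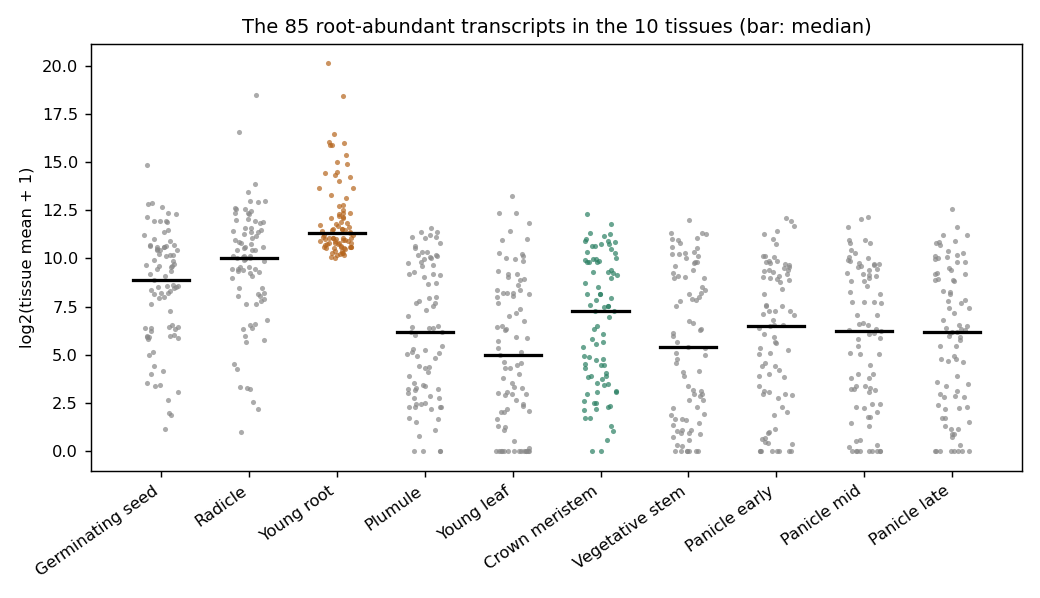
Each point is 1 of the 85 root-abundant transcripts, with log2(tissue mean + 1) on the y axis for the 10 tissues (n = 3 libraries, or 2 for young root and vegetative stem) and a bar at the median. Young root (brown) is high by selection. The crown meristem median (green) corresponds to a tissue mean of 153. It lies below those of radicle (1030) and germinating seed (474) and above those of plumule, young leaf, vegetative stem and the panicle stages.

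The crown was then tested against the other shoot tissues for these 85 transcripts, in contrasts that compare no young root library. Crown meristem was higher than young leaf for 42 of the 85 (background 13.6% of all transcripts tested) and lower for 10 (8.92%). Against plumule 14 were higher (3.62%) and 4 lower (6.43%), and against vegetative stem 21 were higher (2.45%) and 1 lower (1.05%). The higher counts were 49.4%, 16.5% and 24.7% of the 85 for young leaf, plumule and vegetative stem. The background was not matched for level. Of all 77548 transcripts, 28733 were at 1 or more in every crown library, against 75 of the 85. The median log2 difference over the 85 was 1.53 against young leaf, 0.22 against plumule and 1.0 against vegetative stem, where the median over all transcripts was 0 each time.

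The counts higher in the crown leaned on single libraries and on the identifier series. Without crown library 2 the count was 8 against plumule and 10 against vegetative stem, and without crown library 3 it was 13 against vegetative stem. Vegetative stem lies wholly in the other identifier series from the crown libraries, and with the series as a covariate, estimated from radicle and young root, 7 were higher than in vegetative stem. Crown meristem, plumule and young leaf share 1 series.

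Against all 3 shoot tissues 9 of the 85 were higher in the crown, compared with 727 of all transcripts (0.937%), again not matched for level. The count was 5 without crown library 2 and 5 with the series covariate. The 9 were picked out after their values were seen. They included TRINITY_DN22072_c0_g2_i1 and TRINITY_DN44605_c0_g1_i4 from the root top 10. TRINITY_DN17241_c0_g1_i6 had 25263 and 18927 in young root and 1172, 1996 and 1674 in the crown, against means of 426 in plumule, 286 in young leaf and 283 in vegetative stem. TRINITY_DN12259_c0_g1_i1 had 19572 and 6512 in young root and 2057, 1803 and 1222 in the crown, against 256, 10.7 and 219 in those tissues. TRINITY_DN25073_c0_g1_i4 had 5159 and 5112 in young root and 23.7, 35.6 and 28.9 in the crown, against 5.72, 6.43 and 2.17. The leading transcript TRINITY_DN7657_c1_g1_i63 was not among them: its crown mean of 5125 ± 1290 (SD, n = 3) exceeded plumule by a log2 difference of 1.51, young leaf by 1.29 and vegetative stem by 1.77, none of which passed (limma adjusted p = 0.077, 0.092 and 0.13). Germinating seed and the panicle stages had no part in choosing the 9. TRINITY_DN22072_c0_g2_i1, TRINITY_DN44605_c0_g1_i4, TRINITY_DN17241_c0_g1_i6 and TRINITY_DN25073_c0_g1_i4 had germinating seed means of 7552, 7114, 6516 and 78.8, each above the crown mean. TRINITY_DN12259_c0_g1_i1 had 1363 in germinating seed, below its crown mean of 1694, but 1949 in mid panicle.

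The crown libraries did not carry the root-abundant transcripts equally. For 30 of the 75 detectable ones (40.0%) library 2 was highest and library 1 lowest, an order seen in 13.8% of the 28733 transcripts at 1 or more in all 3 crown libraries. In 7 of the root top 10 the same order held. Library 2 was at least 1.5 times library 1 for 30 of the 75, against 10.3% of all detectable transcripts, and the reverse was true of 6. The median log2 difference of library 2 over library 1 was 0.23 for the 75 and -0.04 for all detectable transcripts.

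**Figure D4:**
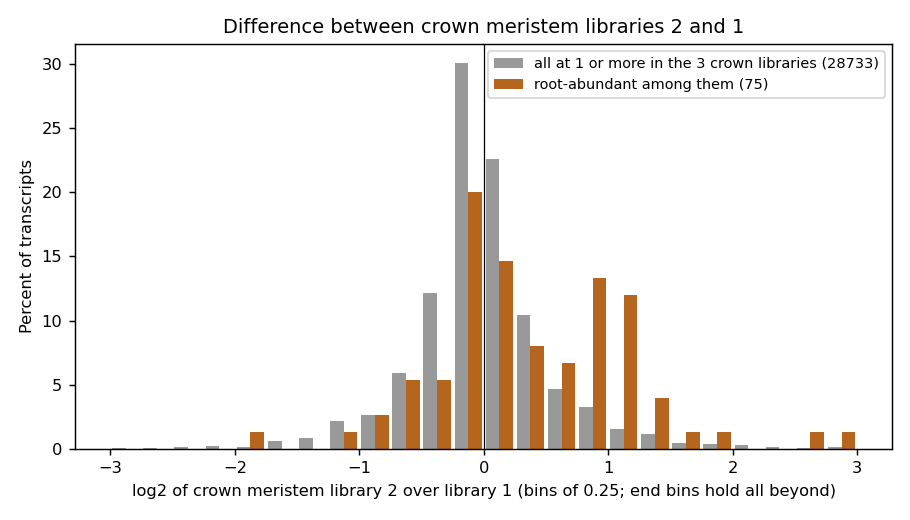
Percent of transcripts (y axis) by log2 of crown meristem library 2 over library 1 (x axis, bins of 0.25), for all 28733 transcripts at 1 or more in the 3 crown libraries (grey) and for the 75 root-abundant ones among them (brown). The grey bars centre near 0 (median -0.04), while the brown bars have a second group near a log2 ratio of 1 and a median of 0.23.

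The 14 root-abundant transcripts that were not called had high crown values too. Their crown means ran from 882 to 3518, and their log2 differences from -0.38 to 0.97. The adjusted p was below 0.05 for 4 of them, with a difference under the minimum of 1. TRINITY_DN31280_c1_g1_i1 had 3651 and 2992 in young root and 3838, 3593 and 3122 in the crown (log2 difference -0.08, SE 0.20, limma adjusted p = 1.0). TRINITY_DN1360_c0_g1_i14 had 1219 and 1105 against 1368, 1185 and 1239 (-0.12, SE 0.19, adjusted p = 0.83). The libraries of the tissues overlapped in both cases.

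TRINITY_DN43988_c0_g1_i1 and TRINITY_DN62851_c0_g1_i1 were also among the 4 smallest differences. The first had 4571 and 1357 in young root, which spans the crown values of 2778, 2330 and 2510. The second had 3230 and 2030 against 2401, 2295 and 2287 (log2 difference 0.14, SE 0.23, limma adjusted p = 0.87). Both were highest in radicle, at means of 8050 and 5171, and low in young leaf, at 326 and 328. The calls of the 4 smallest differences depended on the scaling: all were lower in young root with the common sum (-1.90 to -2.16) and with quantile normalization (-1.45 to -3.33).

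Of the 10 root-abundant transcripts below 1 in at least 1 crown library, 3 were below 1 in all of them and are given above. The others, named after their values were seen, include TRINITY_DN7657_c0_g3_i2, with 1142 and 2338 in young root and 8.13, 5.60 and 0 in the crown, and TRINITY_DN85475_c0_g1_i1, with 1372 and 2912 against 0, 4.14 and 2.87. Both had means under 5 in radicle, against a median of 1030 over the 85, and germinating seed means of 154 and 355. The others of this group had radicle means from 22.0 for TRINITY_DN43050_c0_g1_i1 to 1391 for TRINITY_DN4135_c0_g2_i1. TRINITY_DN7657_c0_g3_i2 shares its assembly cluster number with the leading root transcript, which alone does not show that they are near-identical. In radicle the leading transcript had a mean of 367564 and TRINITY_DN7657_c0_g3_i2 one of 1.01. Whether they share reads was not tested.

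In the opposite direction, the transcripts most depleted in young root were moderately abundant in the crown. TRINITY_DN3421_c0_g1_i1 had 600, 603 and 580 in crown libraries 1, 2 and 3 and 1.08 and 0 in young root libraries 1 and 2; it fell by 8.69 on the log2 scale from crown to root (SE 0.43, limma adjusted p = 9.4e-13). The next 7 had a 0 in young root libraries 1 and 2 alike, so no fold is given. TRINITY_DN78102_c0_g1_i1 was the highest of them in the crown, with 339, 419 and 345, followed by TRINITY_DN34241_c0_g1_i1 with 272, 300 and 245. TRINITY_DN30404_c0_g1_i1, TRINITY_DN1717_c0_g3_i1, TRINITY_DN3408_c0_g1_i5, TRINITY_DN41947_c0_g1_i1 and TRINITY_DN20685_c0_g1_i1 had crown means from 172 to 255. The adjusted p-values of the 7 ran from 2.2e-13 to 2.7e-09.

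The other tissues are given for these 8 as levels, since the crown libraries that chose them would enter any comparison with the crown. Their vegetative stem means lay between 188 and 460, beside crown means of 172 to 595. Plumule means were above the crown means for 3 of the 8, at 815 against 249 for TRINITY_DN1717_c0_g3_i1, 891 against 231 for TRINITY_DN3408_c0_g1_i5 and 563 against 196 for TRINITY_DN41947_c0_g1_i1. TRINITY_DN3421_c0_g1_i1 had higher means in early panicle (1013), germinating seed (848) and mid panicle (730) than in the crown (595). Young leaf means ran from 0.456 for TRINITY_DN3421_c0_g1_i1 to 176 for TRINITY_DN1717_c0_g3_i1, each below the stem mean of the same transcript. In radicle 4 of them were listed at a mean of 0, namely TRINITY_DN78102_c0_g1_i1, TRINITY_DN34241_c0_g1_i1, TRINITY_DN41947_c0_g1_i1 and TRINITY_DN20685_c0_g1_i1. TRINITY_DN30404_c0_g1_i1 had a radicle mean of 52.9.

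Among transcripts at 1 or more in all 5 libraries, the largest falls were somewhat smaller. TRINITY_DN1792_c0_g1_i39 had 689, 458 and 406 in the crown and 5.45 and 2.22 in young root (fell by 6.79, SE 0.60, limma adjusted p = 1.1e-08). TRINITY_DN3214_c0_g1_i23 had 276, 354 and 368 against 3.58 and 3.19, and TRINITY_DN19797_c0_g1_i35 had 160, 212 and 213 against 1.60 and 1.65. All 3 were present in vegetative stem, at means of 353, 384 and 173.

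TRINITY_DN5408_c0_g1_i2 differed from all of these. It had 963, 1225 and 714 in the crown and 26.2 and 16.4 in young root (fell by 5.44, SE 0.68, limma adjusted p = 1.4e-06). Germinating seed, radicle, plumule and vegetative stem were at a mean of 0, young leaf was at 0.150 and the panicle stages were between 1.11 and 4.35. Young root was thus its second-highest tissue. The young root excess over radicle was a log2 difference of 4.44 (adjusted p = 3.1e-05).

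**Figure D5:**
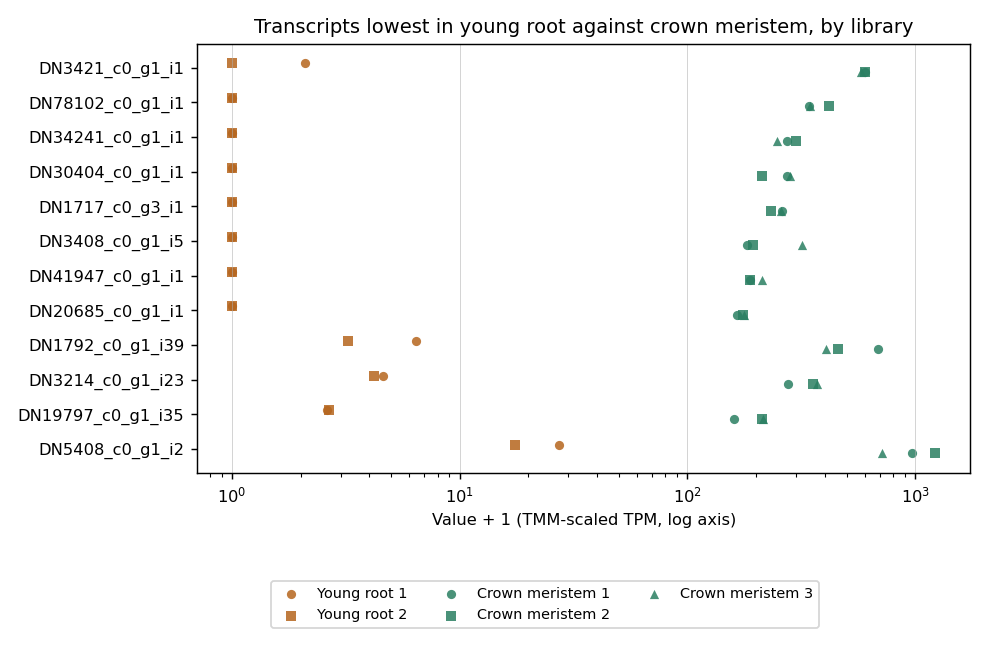
Values + 1 on a log axis for the 8 transcripts with the lowest log2 difference and the 4 lowest among those at 1 or more in all 5 libraries, 1 symbol per library (brown, young root; green, crown meristem). Root symbols at 1 are values listed at 0; crown values lie between 160 and 1225.

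Of the 10 with the highest crown mean, 2 were the leading root transcripts, 4 were lower in young root and 4 were not called. TRINITY_DN75837_c0_g1_i1 showed the largest fall of the 10, from 3077, 2265 and 2282 in the crown to 179 and 120 in young root (fell by 4.09, SE 0.26, limma adjusted p = 8.2e-11). TRINITY_DN637_c2_g1_i2 fell by 3.12 and TRINITY_DN1297_c0_g1_i1 fell by 1.76, and both were higher in young leaf than in the crown (crown minus leaf -1.02 and -1.18, adjusted p = 0.014 and 4.0e-04). With the 5 libraries alone neither passed (adjusted p = 0.14 and 0.66). TRINITY_DN36129_c0_g1_i1, whose mean reached 23873 in young leaf, fell by 1.27 (SE 0.36, limma adjusted p = 0.0096). That call was lost without young root library 2 (log2 difference -0.73), with the identifier series as a covariate (-0.66), with median centring (-0.85) and with the 5 libraries alone (adjusted p = 0.76). TRINITY_DN91580_c0_g1_i1 had 4460 and 3063 in young root and 2211, 1903 and 1976 in the crown, a log2 difference of 0.87 that was under the minimum (adjusted p = 0.047), and was highest in radicle at 11012. It was called higher with median centring (1.29), with the series covariate (1.05) and without young root library 2 (1.14), and lower with the common sum (-1.17) and quantile normalization (-1.21).

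Presence and absence were unequal between the tissues. In all, 5304 transcripts were at 1 or more in the 3 crown libraries and at 0 in the 2 young root libraries, with a median crown mean of 3.96. At 1 or more in both young root libraries and at 0 in all crown libraries were 621, with a median root mean of 18.3. The lowest values that could be seen differed too: the 5th percentile of the non-zero values was 0.764 and 0.757 in young root and 0.253 to 0.268 in the crown, so a 0 in young root covers a wider range of low levels. The part of this limit in the unequal counts was not tested.

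Of the 5304 seen in the crown and not in young root, 71.0% were at 1 or more in every vegetative stem library, against 36.6% of all transcripts tested, and 62.2% in every plumule library, against 36.2%. In every radicle library 10.1% of them were at 1 or more, against 24.6% of all. The 5304 were chosen for detection in the crown, and the transcripts tested were not matched for it. The higher shares in vegetative stem and plumule may follow from that choice, so these comparisons describe the set and are no test. Of the 621 seen in young root and not in the crown, 183 (29.5%) were at 1 or more in every radicle library. This share was near that of all transcripts, which were not matched for detection in young root. In every vegetative stem library 4 of the 621 were at 1 or more. A mean under 1 in all 8 other tissues was found for 202 of the 621 and for 116 of the 5304. The share over all transcripts was not taken. The sets also differ in level, with a median root mean of 18.3 and a median crown mean of 3.96, so these counts only describe them.

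Finally, the calls were set beside radicle against plumule, a root and shoot comparison at 3 days that shares no library with them. Of the 6913 transcripts higher in young root, 3249 (47.0%) were also higher in radicle than in plumule (background 9.65%), and 247 (3.57%) were lower (background 22.7%). Of the 14226 lower in young root, 9184 (64.6%) were lower in radicle as well and 342 (2.40%) higher. Seen from the other side, 43.4% of the radicle-higher and 52.2% of the radicle-lower calls were among the young root calls of that direction. Scaling changed the first count, which was 1258 with the common sum and 5571 with median centring.

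The tissue of the highest mean was young root for 4110 of the higher calls and crown meristem for 3198 of the lower calls, shares that the call itself raises. Radicle was highest for 1779 of the higher calls (25.7%) and 431 of the lower calls (3.03%), against 11.6% of all transcripts tested. Vegetative stem was highest for 14.6% of the lower calls, against 6.94% of all. Young leaf (15.4% against 11.6%), early panicle (11.8% against 10.8%) and plumule (11.2% against 15.2%) were nearer to their shares of all transcripts. The root-abundant 85, chosen for their young root level, were highest in young root in 65 cases and in radicle in 12. TRINITY_DN18319_c1_g1_i1, singled out after its values were seen, was highest in the crown, with 2209, 1555 and 1997 against 1985 and 1070 in young root and a mean of 3.55 in young leaf.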

How the data were processed

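The table was deposited as non-negative signal values for 101935 assembled transcripts in 28 libraries. According to the series design text, reads were assembled by the authors with Trinity and abundances estimated as TPM with kallisto. CASAVA and Trimmomatic also appear in the submitters' processing notes, versions not given in the sources used here. TMM scaling is stated in the table's name. Every column matched 1 sample by the code in its title.

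Transcripts at 1 or more in at least 2 libraries were kept (77548). Limma 3.58.1 (R 4.3.3), tested on simulated data, was fitted to log2(value + 1). The model had a mean for every tissue, used the 28 libraries together without covariates, moderated the variance along an intensity trend and left 18 residual degrees of freedom. P-values are two-sided and adjusted over all transcripts kept. The log2(value + 1) scale understates changes of low transcripts. Nothing says that replicates were separate plants, so p-values reflect only how these samples spread, and that spread may be technical. The labels name 2 extraction methods without assigning them to libraries.

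Named transcripts were the 8 largest and 8 lowest log2 differences among calls without overlap between libraries, the 4 at either end among those at 1 or more in all 5 libraries, the 10 highest means of either tissue and, among root-abundant transcripts, the 4 highest in the crown, the 4 smallest differences and those under 1 in all crown libraries. The comparison, the lists and the thresholds were chosen with earlier results of these data known. Alternatives changed the pseudocount, filter, scaling, covariates, weights and libraries used.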

Additional observations from a re-analysis of the deposited data

How the results depend on the processing

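The counts of 6913 higher and 14226 lower calls changed by over 1.5 times in these settings: a pseudocount of 5 gave 6891 lower; a filter at a mean of 5, which tests fewer transcripts, 3134 higher and 8547 lower; a common sum 2778 and 26218; median centring 9224 lower; and the 5 libraries alone, with 3 residual degrees of freedom, 4022 and 8336. The share of calls that were lower, 67.3%, was 74.3% and 58.3% with pseudocounts of 0.1 and 5, 65.4% without a filter, 71.0% with the filter on the 5 libraries, 73.2% with the filter at a mean of 5, 90.4% with the common sum, 70.4% with the common sum outside the most abundant transcripts, 58.6% with quantile normalization, 48.0% with median centring, 64.4% with the identifier series as a covariate, 65.8% with library weights, and 60.5% to 69.3% without single libraries. The 3249 calls shared with radicle became 2053 (pseudocount 5), 1980 (mean of 5), 1258 (common sum) and 5571 (median centring); the cause was not tested.

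Root-abundant transcripts detectable in the crown numbered 75 of 85, 934 of 1066 at a threshold of 100, 13 of 14 at 10000 and 27 of 29 with the common sum. With the crown level at 10 or more 60 of the 85 were detectable. Without single libraries the count was 75 to 101; leaving out a young root library enlarged the root-abundant set too, to 86 detectable of 100 without library 1 and 101 of 117 without library 2. Counts higher in the crown than in other shoot tissues, added after seeing the data, were 14 for plumule (8 to 14 without single libraries), 21 for vegetative stem (10 to 21; 7 with the series covariate) and 9 for all 3 tissues (5 to 9; 5 with the covariate).

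Of 703 repeats of the named log2 differences, 674 kept their call or lack of one, 16 lost a call and 9 gained one in the same direction. The direction turned for TRINITY_DN62851_c0_g1_i1 and TRINITY_DN91580_c0_g1_i1 with the common sum (-1.90 and -1.17) and with quantile normalization (-2.05 and -1.21). The labels do not say what a replicate number shares, so libraries with the same number were not treated as pairs. The replicate numbers gave only 2 pairs, whose deviations correlated at 0.05 and 0.01. With 2 root libraries the deviations mirror each other, so these values cannot decide whether pairs exist. With the replicate block 6789 were higher and 14018 lower, and no named call changed.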
